A study of Mus musculus with 18 samples.

Results

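Fragments of 5S ribosomal RNA, 4.5S RNA and the Y RNAs RNY1 and RNY3 were followed in mouse liver, as the transcripts of RNA polymerase III other than tRNAs in a table of 1234 small RNAs. The 4 entries, 5S-rRNA, 4.5S-rRNA, RNY1-YRNA and RNY3-YRNA, were taken by name. The table covers 18 small RNA libraries from the livers of 9 C57BL/6 male mice, which were 8 weeks old when the diets began. PANDORA_HCD (n = 4, mice 15 to 18) and PANDORA_LCD (n = 5, mice 1 to 5) are the PANDORA-seq libraries of mice on a high cholesterol diet (HCD) with 0.5% cholesterol and on a diet low in cholesterol (LCD) with 0.02%. traditional_HCD (n = 4) and traditional_LCD (n = 5) are the standard libraries of the same mice. In PANDORA-seq the gel-purified RNA of 15 to 50 nt was treated with T4PNK, a kinase and phosphatase that repairs RNA ends, and then with AlkB, a demethylase that removes some base methylations that stall reverse transcription. The sources used here give 4, 8 or 9 weeks for the time on the diet. Every value is in RPM, reads scaled to the same total of all reads in each library.

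5S rRNA is a component of the large ribosomal subunit. It is made by polymerase III from tandem gene copies with a promoter inside the gene, whereas the 5.8S, 18S and 28S rRNAs are cut from a 45S precursor made by polymerase I. Y RNAs are short hairpin RNAs from polymerase III genes with upstream promoters. Their paired ends bind the Ro protein, and their oligo-U tail binds the La protein, which also protects new 5S and tRNA transcripts. Y RNA fragments are known from stressed and dying cells and from blood. 4.5S RNAs are small polymerase III transcripts of some rodents and are not known as ribosome components, although the table names the entry an rRNA.

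The RNY1 and RNY3 sequences are shown because both entries count fragments of related RNAs from neighbouring genes. In GENCODE (GRCm38) Rny3 lies at chr6:47781624-47781725 on the plus strand and Rny1 at chr6:47788069-47788180 on the minus strand, 6343 bases apart. The entries were matched to these genes by name, since the reference sequences the authors aligned to are not given in the sources used here. Capitals mark the runs of 8 or more bases that both RNAs hold.
Rny1: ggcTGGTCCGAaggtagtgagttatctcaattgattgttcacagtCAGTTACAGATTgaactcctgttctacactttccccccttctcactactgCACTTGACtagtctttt
Rny3: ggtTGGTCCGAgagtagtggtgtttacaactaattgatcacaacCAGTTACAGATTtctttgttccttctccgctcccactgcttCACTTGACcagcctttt
Rny1 is 112 nt long and Rny3 is 102 nt long, and they matched in 84 of 115 aligned columns (73.0%). The shared runs are 8 bases near each end and 12 bases in the middle. None of the 98 windows of 15 bases in Rny1, the shortest size in the gel slice, occurred in Rny3 with up to 1 mismatch.

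Of the 4 entries, 5S held the most reads. The annotation lists 180 other 5S-like genes in addition to Rn5s, so the entry can sum fragments of many copies. Rn4.5s, which RefSeq places at chr6:47654921-47655094 and types as an rRNA of 174 nt, is named only.

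Depth, inferred from the value of a single read, ran from 1934330 to 25488322 reads per library. All 72 values of the 4 entries were whole reads within 0.02 read, from 48 reads (RNY3, traditional-seq, mouse 17) to 717013 reads (5S, PANDORA-seq, mouse 16). Reads assigned to no listed RNA made up 13.6% to 18.9% in PANDORA_HCD and 20.3% to 22.3% in PANDORA_LCD, so this share separated the diets, and 4.15% to 8.12% in traditional libraries. miRNAs took 7.56% to 15.8% of listed reads in PANDORA_HCD, 2.04% to 5.58% in PANDORA_LCD and 62.0% to 82.0% in traditional libraries. The tissue label held: miR-122, the hepatocyte miRNA, made up 15.3% to 64.4% of miRNA reads, and the 5 markers of blood and immune cells together 0.0035% to 0.0451%. Zeros among these 5 went with the method. The red cell miRNA miR-451a was at 0 in 8 of 9 PANDORA libraries but in 0 traditional libraries. In PANDORA-seq miR-144 was at 0 in 9, miR-223 in 2, and miR-486a and miR-142a in 0 libraries. Such zeros do not show that blood was absent.

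The 4 entries differed widely in level. Per base of its gene, 5S averaged 760.2 ± 138 RPM in PANDORA_HCD, 345.1 ± 122 RPM in PANDORA_LCD, 161.2 ± 103 RPM in traditional_HCD and 87.5 ± 23.9 RPM in traditional_LCD (SD, n = 4, 5, 4 and 5). RNY1 averaged 0.372 ± 0.164, 0.578 ± 0.251, 0.310 ± 0.290 and 0.296 ± 0.120 RPM per base in the same order of groups, and RNY3 averaged 0.338 ± 0.260, 0.728 ± 0.282, 0.0745 ± 0.0411 and 0.263 ± 0.0240 RPM per base. 5S thus stood far above both Y RNAs in every library, while the levels of RNY1 and RNY3 per base overlapped in each of the 4 groups. In traditional_HCD this overlap was narrow, with RNY1 down to 0.121 and RNY3 up to 0.125 RPM per base. Without division by length they did not overlap there, at 13.6 to 83.1 RPM for RNY1 and 2.88 to 12.8 RPM for RNY3. Within each traditional_HCD library RNY1 was the higher Y RNA. 5S ranked between place 2 and place 5 of all RNAs in PANDORA libraries and between place 6 and place 15 in traditional libraries. No length is given for 4.5S per base, because the sequence behind its entry is not known here.

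**Figure D1:**
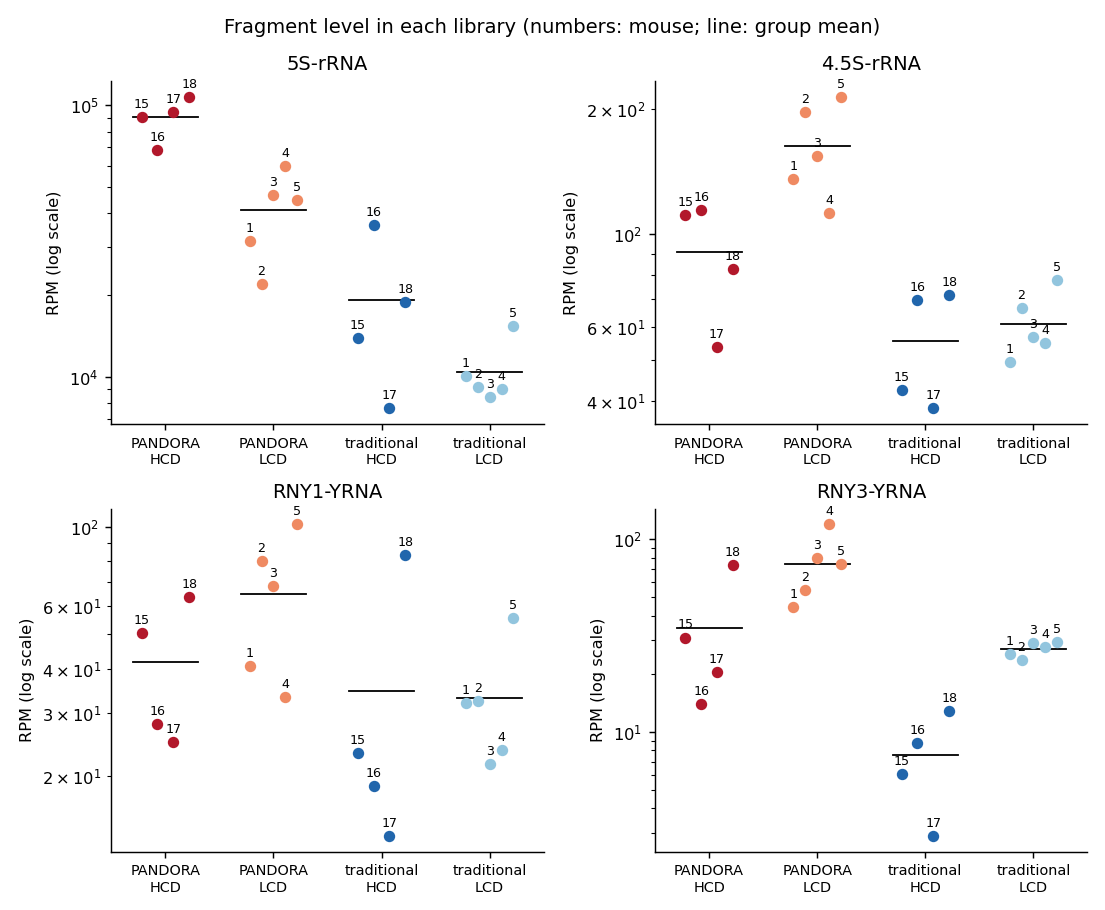
RPM (log scale) of 5S-rRNA, 4.5S-rRNA, RNY1-YRNA and RNY3-YRNA in each library, by group, with the mouse number above each point and a line at the group mean. 5S-rRNA lies between 68433 and 107759 RPM in PANDORA_HCD and between 22061 and 59745 RPM in PANDORA_LCD, and RNY3-YRNA lies between 2.88 and 12.8 RPM in traditional_HCD and between 23.4 and 29.2 RPM in traditional_LCD.

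The first question was how much the enzyme treatment changed the detection of these fragments. 5S was higher in PANDORA-seq on both diets, and so was RNY3, while 4.5S and RNY1 passed the test on the LCD but not on the HCD. The other RNAs give the background: at an adjusted p of 0.05 (limma on log2(RPM + 1), Benjamini-Hochberg over all RNAs tested), 57 of 312 RNAs were higher (18.3%) and 192 were lower (61.5%) in PANDORA-seq on the HCD, and 71 of 325 were higher (21.8%) and 229 were lower (70.5%) on the LCD. Groups did not overlap in RPM for 71.8% of RNAs on the HCD and 87.7% on the LCD. Higher calls were thus the less common direction in these comparisons of RPM.

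On the HCD, 5S had 90873, 68433, 94779 and 107759 RPM in PANDORA libraries of mice 15, 16, 17 and 18, against 13861, 36296, 7649 and 18930 RPM in traditional libraries. Every PANDORA library was above every traditional library, and mouse 16, lowest in PANDORA-seq, was highest in traditional-seq. The log2 fold change of 5S was 2.44 ± 0.45 (SE, adjusted p = 9.47e-06, limma), or 5.43-fold. On the LCD, 5S had 31684, 22061, 46885, 59745 and 44953 RPM in PANDORA libraries of mice 1 to 5, against 10063, 9181, 8414, 9032 and 15394 RPM in traditional libraries. The groups again did not overlap, with mouse 5 high among the traditional libraries, and the log2 fold change was 1.93 ± 0.28 (SE, adjusted p = 5.1e-06, limma), or 3.82-fold.

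RNY3 was the Y RNA with the clearer gain. On the HCD it had 30.8, 13.9, 20.3 and 72.8 RPM in PANDORA libraries of mice 15 to 18, against 6.04, 8.72, 2.88 and 12.8 RPM in traditional libraries. The groups did not overlap, but mouse 16 in PANDORA-seq and mouse 18 in traditional-seq lay close together. The log2 fold change of RNY3 was 1.92 ± 0.61 (SE, adjusted p = 0.00501, limma). On the LCD it had 44.6, 54.3, 79.3, 119.0 and 74.1 RPM in PANDORA libraries of mice 1 to 5, against 25.3, 23.4, 28.9, 27.4 and 29.2 RPM in traditional libraries. Traditional libraries were tightly grouped and all below the PANDORA libraries, with a log2 fold change of 1.36 ± 0.32 (SE, adjusted p = 0.00071, limma).

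RNY1 showed less. On the HCD it had 50.4, 28.1, 25.0 and 63.4 RPM in PANDORA libraries of mice 15 to 18, against 23.3, 18.8, 13.6 and 83.1 RPM in traditional libraries. Mouse 18 was high in both kinds of library and the groups overlapped. The log2 fold change of RNY1 was 0.52 (95% interval -0.71 to 1.75; adjusted p = 0.432, limma). On the LCD it had 40.6, 79.9, 68.3, 33.4 and 101.5 RPM in PANDORA libraries of mice 1 to 5, against 32.1, 32.5, 21.7, 23.7 and 55.5 RPM in traditional libraries. The groups overlapped through mouse 5, highest in both. RNY1 passed the test on the LCD with a log2 fold change of 0.91 ± 0.38 (SE, adjusted p = 0.0302, limma), and the call was lost without PANDORA-seq of mouse 2, 3 or 5 or traditional-seq of mouse 3 or 4 (adjusted p = 0.0571 to 0.0876, limma).

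4.5S had 111.2, 114.2, 53.8 and 82.9 RPM in PANDORA libraries of HCD mice 15 to 18, against 42.5, 69.6, 38.3 and 71.7 RPM in their traditional libraries. The groups overlapped, and the log2 fold change was 0.69 (95% interval -0.39 to 1.77; adjusted p = 0.235, limma). On the LCD it had 135.8, 195.8, 154.1, 112.5 and 213.6 RPM in PANDORA libraries of mice 1 to 5, against 49.6, 66.7, 57.0, 54.9 and 77.7 RPM in traditional libraries. Here the groups did not overlap, with a log2 fold change of 1.37 ± 0.30 (SE, adjusted p = 0.000337, limma).

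**Figure D2:**
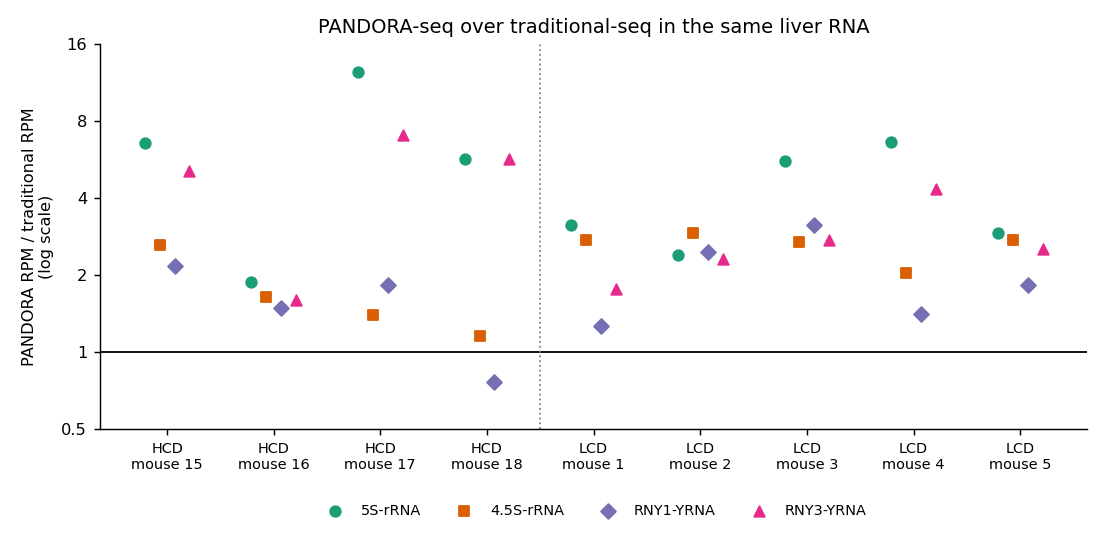
PANDORA-seq RPM divided by traditional-seq RPM of the same mouse (log scale), HCD mice on the left and LCD mice on the right, a symbol for each RNA and a line at 1. 5S-rRNA, 4.5S-rRNA and RNY3-YRNA lie above 1 in 9 of 9 mice and RNY1-YRNA in 8 of 9, with mouse 18 at 0.764.

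Within a mouse, the PANDORA over traditional ratio of 5S was lowest in mouse 16 (1.89) and highest in mouse 17 (12.4) among HCD mice, and 2.40 to 6.61 among LCD mice. RNY3 had ratios of 1.60 to 7.07 in HCD mice and 1.76 to 4.35 in LCD mice, with its lowest and highest HCD values in the same mice as 5S. The ratio of 4.5S was 1.16 to 2.62 in HCD mice and 2.05 to 2.93 in LCD mice, and that of RNY1 was 0.764 to 2.17 in HCD mice and 1.27 to 3.15 in LCD mice. Mouse 17 thus had a 12.4-fold gain of 5S beside a 1.40-fold gain of 4.5S.

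The scale of the method comparison depends on what the libraries are scaled to. The median log2 fold change of all RNAs was -1.84 on the HCD and -2.63 on the LCD in RPM, -1.35 and -1.66 after TMM scaling (trimmed mean of M values), and 0.35 and 0.37 after scaling to miRNA reads. Relative to that median, 5S was 4.28, 4.64 and 5.10 higher on the HCD under the 3 scalings, and 4.5S was 2.53, 2.88 and 3.28 higher. 4.5S and RNY1, not called on the HCD in RPM, were called there after TMM scaling (log2 fold changes 1.53 and 1.35; adjusted p = 0.0028 and 0.0182, limma) and after miRNA scaling. With miRNA scaling 120 RNAs were higher and 80 lower on the HCD, and 135 higher and 57 lower on the LCD.

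Other structural RNAs were set beside these entries, the tRNAs as polymerase III products and the other rRNAs. Of 51 cytosolic tRNA families, 39 were higher and 0 lower in PANDORA-seq on the HCD, also at an unadjusted p of 0.05 (median log2 fold change 2.75), and 43 were higher and 3 lower on the LCD (median 2.42). The largest changes were those of tRNA-Ser-GCT and tRNA-Arg-ACG on both diets, with log2 fold changes of 6.43 and 5.82 on the HCD and 6.43 and 5.67 on the LCD. The 4 polymerase I entries, 5.8S, 18S, 28S and 45S, were all called higher on both diets, with medians of 1.5 on the HCD and 1.11 on the LCD, and 1 of 2 mitochondrial rRNAs was called higher on the HCD and 2 of 2 on the LCD. The 5S change of 2.44 on the HCD was above those of 5.8S (1.35), 18S (1.69), 28S (1.25) and 45S (1.66), and on the LCD 18S changed more (4.52) than 5S (1.93).

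**Figure D3:**
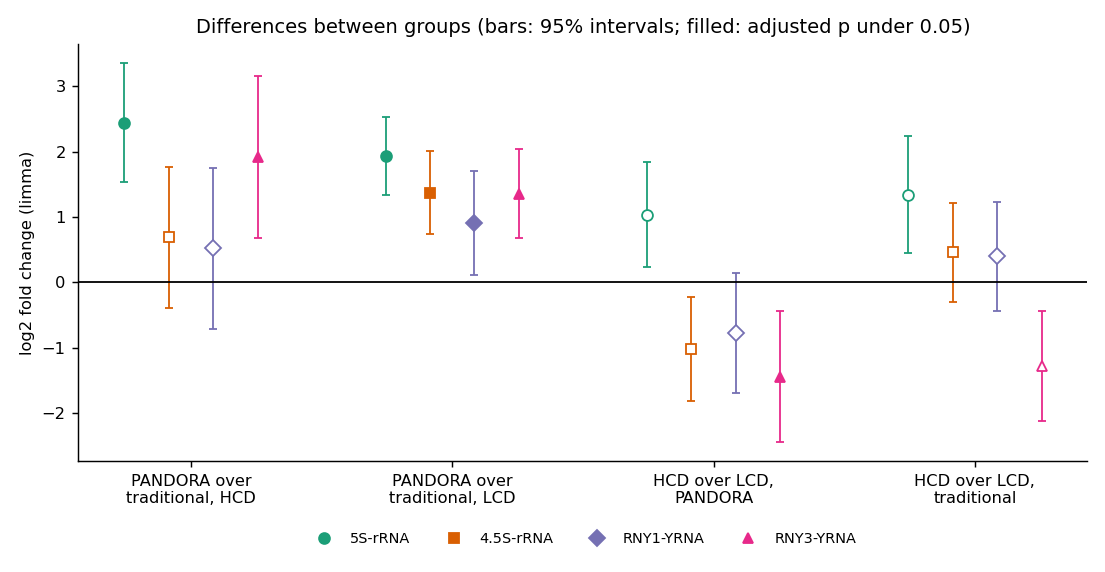
log2 fold changes from limma with 95% intervals for 5S-rRNA, 4.5S-rRNA, RNY1-YRNA and RNY3-YRNA in the 4 comparisons, filled where the adjusted p is under 0.05. Method comparisons use RPM and diet comparisons use TMM-scaled RPM; 5S-rRNA has the highest value in each comparison, and RNY3-YRNA is below 0 in both diet comparisons.

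The second question was what the high cholesterol diet changed. RNY3 fragments were lower on the HCD in PANDORA-seq. In traditional-seq the RNY3 values of the diets did not overlap in RPM, but the change missed the threshold. 5S fragments were higher on the HCD in every PANDORA library but also missed it. In bulk liver, fewer cells of a type and less RNA per cell cannot be told apart. Diet comparisons used TMM-scaled RPM: in PANDORA-seq 19 of 244 RNAs were higher (7.79%), 38 were lower (15.6%) and 20.9% did not overlap in RPM, and in traditional-seq 12 of 349 were higher (3.44%), 22 were lower (6.3%) and 18.9% did not overlap. Against RPM as deposited and miRNA scaling, the PANDORA-seq counts of higher and lower RNAs were 29 and 28, and 0 and 113, and the traditional-seq counts were 3 and 57, and 3 and 49.

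RNY3 averaged 34.5 ± 26.5 RPM in PANDORA_HCD and 74.2 ± 28.7 RPM in PANDORA_LCD (SD, n = 4 and 5). Mouse 18 was the only HCD mouse within the LCD range, between mouse 2 and mouse 5. The log2 fold change of RNY3 was -1.44 ± 0.47 (SE, adjusted p = 0.0399, limma), a call near the threshold. It was lost in 6 of 9 fits that left out a library (mice 3, 4, 5, 15, 16 or 17; adjusted p = 0.0698 to 0.135, limma), and with RPM as deposited (-1.27; adjusted p = 0.0889, limma). Beside it, the 5 hepatocyte miRNAs summed to 53158 to 125853 RPM in PANDORA_HCD and 11088 to 38235 RPM in PANDORA_LCD. Of these, 2 of 5, mir-192 and mir-148a, were called higher. The uncalled mir-122, mir-194-1 and mir-194-2 had log2 fold changes of 1.71, -0.31 and 0.22 (adjusted p = 0.0554, 0.650 and 0.769, limma). As a share of miRNA reads the hepatocyte sums overlapped, at 83.9% to 92.5% in PANDORA_HCD and 69.9% to 86.7% in PANDORA_LCD. The 4 stellate cell miRNAs summed to 313 to 645 RPM in PANDORA_HCD and 162 to 351 RPM in PANDORA_LCD, and the 5 blood and immune miRNAs to 6.24 to 18.8 RPM in PANDORA_HCD and 1.53 to 7.96 RPM in PANDORA_LCD. Of 15 endothelial, blood, biliary and stellate markers, 8 could be tested there, and limma called 0 of them, also at an unadjusted p of 0.05. The part of these cells in the result was not tested.

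In traditional-seq RNY3 averaged 7.60 ± 4.19 RPM on the HCD and 26.8 ± 2.45 RPM on the LCD (SD, n = 4 and 5). The counting error of these low read counts was smaller than the gap, since the exact Poisson 95% intervals of single libraries reached up to 15.3 RPM on the HCD and down to 18.7 RPM on the LCD, for counting error only. The log2 fold change of RNY3 was -1.27 (95% interval -2.11 to -0.43; adjusted p = 0.0535, limma). Beside it, the hepatocyte miRNAs summed to 454600 to 634720 RPM in traditional_HCD and 370902 to 512172 RPM in traditional_LCD, with 0 of 5 called by limma and 1 at an unadjusted p under 0.05. Of the 15 other cell markers limma called 0, also at an unadjusted p of 0.05, and their part was not tested. With RPM as deposited the RNY3 change was -1.84 (adjusted p = 0.00601, limma), with miRNA scaling -1.86 (adjusted p = 0.0136, limma) and with the read total as a covariate, a choice made after seeing the data, -1.51 (adjusted p = 0.0438, limma). Relative to the median of all RNAs, the RNY3 change was -1.31, -1.33 and -1.30 in traditional-seq under RPM, TMM and miRNA scaling, and -1.31, -1.32 and -1.63 in PANDORA-seq.

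5S averaged 90461 ± 16363 RPM in PANDORA_HCD and 41065 ± 14552 RPM in PANDORA_LCD (SD, n = 4 and 5), a 2.20-fold difference with no overlap. On TMM-scaled values the log2 fold change of 5S was 1.04 (95% interval 0.23 to 1.84; adjusted p = 0.0593, limma). With RPM as deposited it was 1.2 (adjusted p = 0.0103, limma) and with miRNA scaling it turned to -0.50 (adjusted p = 0.429, limma), where the median of all RNAs was -1.27. The share of miRNA among listed reads did not overlap between the diets in PANDORA-seq, as given above; its part in the result was not tested. In traditional-seq 5S averaged 19184 ± 12305 RPM on the HCD and 10417 ± 2844 RPM on the LCD (SD, n = 4 and 5). Mouse 17 was below all LCD mice and mice 16 and 18 above them, and the log2 fold change was 1.34 (95% interval 0.45 to 2.23; adjusted p = 0.0548, limma), or 0.84 without mouse 16 (adjusted p = 0.0464, limma).

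4.5S averaged 90.5 ± 28.2 RPM in PANDORA_HCD and 162.4 ± 41.9 RPM in PANDORA_LCD (SD, n = 4 and 5). Mouse 16 on the HCD lay just above mouse 4 on the LCD, and the log2 fold change was -1.02 (95% interval -1.82 to -0.22; adjusted p = 0.0614, limma). In traditional-seq the diets overlapped in part, with 55.5 ± 17.6 RPM on the HCD and 61.2 ± 11.1 RPM on the LCD (SD, n = 4 and 5), and mice 15 and 17 on the HCD lay below all LCD mice. There the 4.5S log2 fold change was 0.46 on TMM-scaled values and -0.17 in RPM (adjusted p = 0.518 and 0.746, limma).

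RNY1 averaged 41.7 ± 18.4 RPM in PANDORA_HCD and 64.7 ± 28.1 RPM in PANDORA_LCD (SD, n = 4 and 5), with overlapping values and a log2 fold change of -0.77 (95% interval -1.69 to 0.14; adjusted p = 0.215, limma). In traditional-seq it averaged 34.7 ± 32.5 RPM on the HCD and 33.1 ± 13.4 RPM on the LCD (SD, n = 4 and 5). Mouse 18 alone raised the HCD mean: the other HCD mice had 13.6 to 23.3 RPM. The RNY1 log2 fold change of 0.40 (95% interval -0.44 to 1.23; adjusted p = 0.631, limma) became -0.13 without mouse 18 and -0.22 in RPM.

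**Figure D4:**
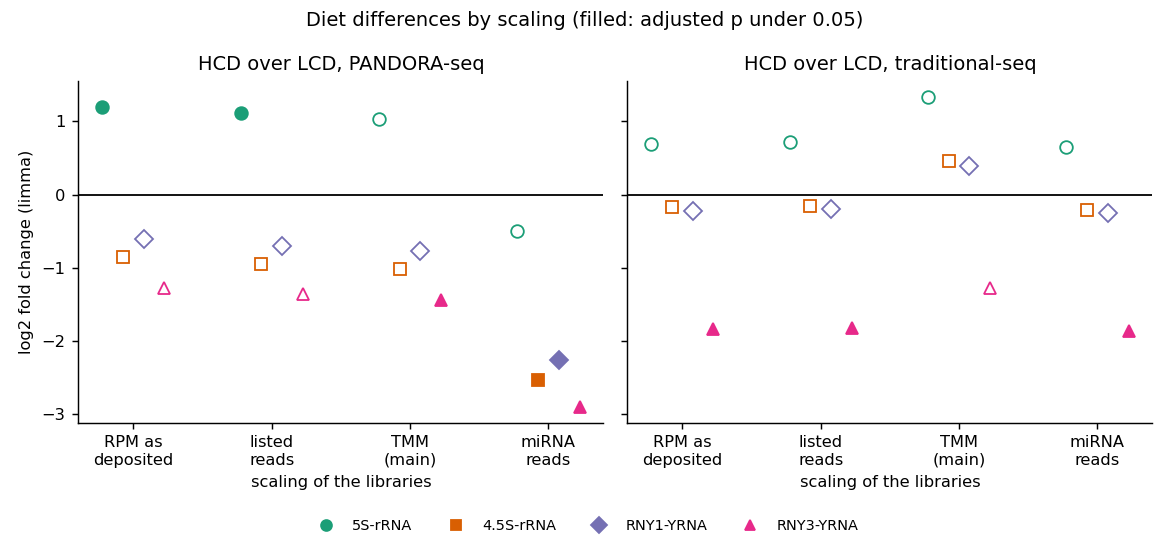
log2 fold changes of HCD over LCD for the 4 RNAs under 4 scalings of the libraries, PANDORA-seq on the left and traditional-seq on the right, filled where the adjusted p is under 0.05 in limma. RNY3-YRNA lies below 0 under each scaling in both methods, 5S-rRNA turns to -0.50 with miRNA scaling in PANDORA-seq, and 4.5S-rRNA and RNY1-YRNA in traditional-seq lie above 0 only with TMM scaling.

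Among the 51 cytosolic tRNA families, 3 were higher and 17 lower on the HCD in PANDORA-seq (median log2 fold change -0.29, against -0.12 for all RNAs), and 7 were higher and 9 lower of 49 tested in traditional-seq (median -0.16, against 0.06). The largest changes were those of tRNA-Met-CAT and tRNA-Val-TAC in PANDORA-seq, at -4.41 and -3.37, while in traditional-seq tRNA-Glu-CTC had -2.67 and tRNA-Glu-TTC had -2.50 on the log2 scale. Of the polymerase I entries, 45S, which holds the precursor, was called higher on the HCD in PANDORA-seq (log2 fold change 1.39; adjusted p = 0.0326, limma), and 18S in traditional-seq (3.19; adjusted p = 0.000364, limma). For 28S, the most abundant rRNA, the values were -0.05 in PANDORA-seq and 0.68 in traditional-seq (adjusted p = 0.912 and 0.387, limma).

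Whether the diet change differed between the methods was tested by an interaction over all 18 libraries, with 20 of 365 RNAs called (5.48%). None of the 4 entries was called by limma, and 0 of 4 had an unadjusted p under 0.05. The diet log2 fold change in PANDORA-seq minus that in traditional-seq was 0.26 for 5S (95% interval -1.08 to 1.61), -0.92 for 4.5S (-1.85 to 0.01), -0.62 for RNY1 (-1.77 to 0.53) and 0.29 for RNY3 (-1.09 to 1.68). The adjusted p was 0.885, 0.230, 0.551 and 0.872 in limma. The intervals of 5S and RNY3 spanned more than a log2 unit on each side of 0.

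Ratios between entries of the same library do not depend on its scaling. The 3 ratios were compared in the 4 comparisons by two-sided exact permutation tests, 12 tests in all, with Benjamini-Hochberg adjustment over the 12. None passed an adjusted p of 0.05, and 6 of the 12 had an unadjusted p under 0.05. The smallest p these tests allow is 0.0286 for 4 against 4, 0.0159 for 4 against 5 and 0.00794 for 5 against 5 libraries. After adjustment over the 12, even a ratio with no overlap could not pass unless other ratios also had a low p.

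RNY1 reads were 2.15 to 6.5 times those of RNY3 in traditional_HCD and 0.751 to 1.90 times in traditional_LCD, with no overlap. The mean log2 ratio was 2.0 ± 0.67 on the HCD and 0.22 ± 0.54 on the LCD (SD, n = 4 and 5), a difference of 1.77 (exact permutation p = 0.0159, adjusted 0.0635). RNY1 made up 79.2 ± 7.89% of Y RNA reads in traditional_HCD and 53.8 ± 9.14% in traditional_LCD. In PANDORA-seq the ratio was 0.871 to 2.01 in PANDORA_HCD and 0.280 to 1.47 in PANDORA_LCD, a log2 difference of 0.69 (exact permutation p = 0.238, adjusted 0.286). Between the methods on the HCD, the log2 ratio was 1.54 lower in PANDORA-seq, with no overlap (exact permutation p = 0.0286, adjusted 0.0635), and on the LCD it was 0.46 lower (exact permutation p = 0.444, adjusted 0.444).

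5S reads were 12.4% to 23.5% of the summed 5.8S, 18S, 28S and 45S reads in PANDORA_HCD and 3.85% to 15.8% in PANDORA_LCD. Mouse 4 on the LCD was within the HCD range, and the mean log2 ratio was 1.11 higher on the HCD (exact permutation p = 0.0317, adjusted 0.0635). In traditional-seq the shares were 3.91% to 14.7% in HCD mice and 4.5% to 9.17% in LCD mice (log2 difference 0.48, exact permutation p = 0.286, adjusted 0.312). Mice 15 and 16 on the HCD lay above all LCD mice and mouse 17 below them. PANDORA-seq held a log2 ratio 1.14 above traditional-seq on the HCD (exact permutation p = 0.0571, adjusted 0.098) and 0.51 above it on the LCD (exact permutation p = 0.230, adjusted 0.286).

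The level of 4.5S relative to 5S had a lower mean on the HCD in both methods, without passing the test. There were 599 to 1760 5S reads for each 4.5S read in PANDORA_HCD and 113 to 531 in PANDORA_LCD, with no overlap, and the log2 ratio of 4.5S to 5S was 2.07 lower on the HCD (exact permutation p = 0.0159, adjusted 0.0635). Traditional-seq had 199.5 to 521 5S reads for each 4.5S read in HCD mice and 138 to 203 in LCD mice (log2 difference -0.87, exact permutation p = 0.0317, adjusted 0.0635). Mouse 17, the HCD mouse with the least 5S in traditional-seq, was within the LCD range.

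**Figure D5:**
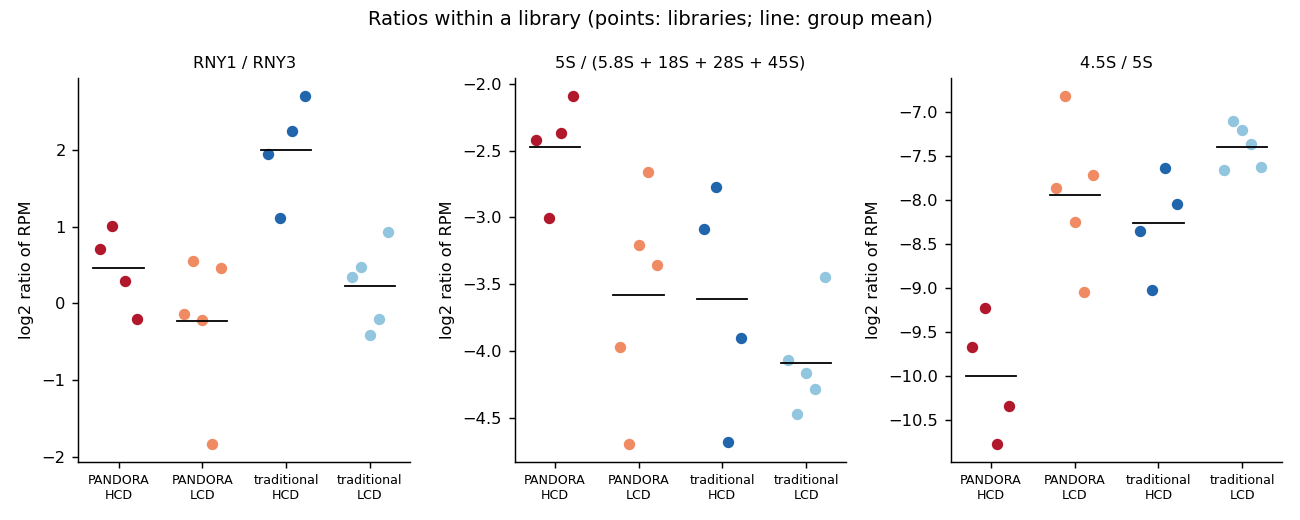
log2 ratios of RPM within each library for RNY1-YRNA over RNY3-YRNA, 5S-rRNA over the sum of 5.8S, 18S, 28S and 45S, and 4.5S-rRNA over 5S-rRNA, by group, with a line at the group mean. The mean log2 ratio of RNY1 over RNY3 is 2.0 in traditional_HCD and 0.22 in traditional_LCD, and that of 4.5S over 5S is -10.01 in PANDORA_HCD and -7.94 in PANDORA_LCD.

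The pattern of each entry over the libraries was set beside those of the other RNAs. Likeness was measured by Pearson's r of log2(RPM + 1) over the 18 libraries with 219 other RNAs averaging at least 10 RPM, as a description, since all RNAs of a library share its depth and total. 5S was most like tRNA-Ser-GGA (r = 0.963), tRNA-Phe-GAA (0.960) and tRNA-Ser-AGA (0.945). 4.5S was most like mir-690 (0.941), mir-3470b (0.912) and the mitochondrial tRNA-Glu-TTC (0.909). RNY3 was most like tRNA-Val-CAC (0.933), tRNA-Glu-CTC (0.909) and the mitochondrial tRNA-Pro-TGG (0.907), and RNY1 most like tRNA-Gly-ACC (0.80), 4.5S (0.743) and tRNA-Val-AAC (0.733). Among the entries, r was 0.743 for 4.5S with RNY1, 0.711 for 4.5S with RNY3 and 0.643 for RNY1 with RNY3, and 5S had 0.521 with 4.5S, 0.439 with RNY3 and 0.360 with RNY1.

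After the 4 group means were removed, so that only mice and libraries differed, 5S was again most like tRNA-Ser-GGA (0.796), followed by tRNA-Glu-CTC (0.791) and tRNA-Arg-CCT (0.785). RNY3 was most like tRNA-Ser-GCT (0.910), tRNA-Asp-GTC (0.846) and tRNA-Phe-GAA (0.798), whereas RNY1 was most like tRNA-Gln-TTG (0.900), tRNA-Gln-CTG (0.866) and mir-186 (0.817). 4.5S was most like mir-3470a (0.839), tRNA-Ile-TAT (0.831) and tRNA-Trp-CCA (0.811). Among the 4 entries, the residual r was 0.661 for 5S with RNY3, 0.644 for 4.5S with RNY1, 0.516 for RNY1 with RNY3, 0.229 for 5S with 4.5S, 0.228 for 5S with RNY1 and 0.160 for 4.5S with RNY3.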

How the data were processed

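Liver small RNA of 15 to 50 nt from 9 mice was sequenced by PANDORA-seq and by traditional-seq. The authors annotated reads with SPORTS1.1 (version 1.1.0 in the submitters' processing notes) on mm10, allowing 1 mismatch, and deposited RPM values, scaled to the total reads of a library, for 1234 RNAs. In it 11673 empty cells were read as 0. The values of listed RNAs sum to 777471 to 958480 RPM. Only 67.6% to 81.5% of values below 3 RPM were whole reads, so no count test was used. The members and lists were chosen with earlier results of these data known, and all 4 entries are reported.

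Tests used limma 3.58.1 (R 4.3.3, trended prior) on log2(RPM + 1), for RNAs of at least 1 RPM in 4 libraries (5 for the LCD method comparison), with Benjamini-Hochberg adjustment over all RNAs tested at 0.05. A fold change on this scale understates the change of low RNAs. Method comparisons used deposited RPM; diet comparisons and the interaction used RPM rescaled by TMM (30% trim on fold, 5% on level). Ratios were tested in scipy 1.17.1, which also gave intervals. The fits were also run on simulated data, with the outcome not reported here. Named RNAs were the 4 entries, the other rRNAs, the 2 tRNA families with the largest change per comparison and the 3 most similar RNAs per entry. Sequences are from GENCODE M21 (GRCm38); that of 5S is not reported here.

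Groups and mouse numbers are from the labels. PANDORA and traditional libraries with the same number come from the same liver RNA by the study's description. Their deviations from the group means correlated only weakly, at 0.0858 to 0.397, over 0.1 in 8 of 9 mice. Only 5 of 9 mice were best matched by their own number, so these values do not establish the pairing. Mice are separate animals, 0 libraries were identical, and the lowest within-group correlation was 0.969. Alternatives changed the scaling, pseudocount, filter, samples fitted, replicate block and each library left out; a read-total covariate was added after seeing the data.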

Additional observations from a re-analysis of the deposited data

Results flagged for a closer look

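In 28 groups of 4 or 5 values (4 RNAs and 3 ratios in 4 groups), 2 libraries lay apart from the rest of their group by Dixon's test, where chance flags about 5% of groups. Traditional-seq of LCD mouse 5 had 15394 RPM of 5S, against 8414 to 10063 RPM in the other traditional_LCD libraries. Traditional-seq of HCD mouse 18 had 83.1 RPM of RNY1, against 13.6 to 23.3 RPM in the other traditional_HCD libraries. The PANDORA library of mouse 18 was also the highest of its group for RNY1, at 63.4 RPM, and for RNY3, at 72.8 RPM.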

How the results depend on the processing

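Of 604 repeats of the fold changes, counts of calls and ratios under other choices, 497 kept the direction and the side of the threshold (for counts, stayed close to the count reported), 18 lost and 24 gained a call, 14 turned the direction and 51 moved a count. No ratio crossed the threshold under any of its alternatives, but some of these could not. The sign-flip tests cannot go below 0.125 for 4 pairs or 0.0625 for 5. A library left out of 4 against 4 also allows no permutation p under 0.05. Such repeats are counted among the 497 and do not show that a ratio is stable. The cause was not tested where a value below differs.

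PANDORA-seq against traditional-seq. On the LCD, RNY1 had 0.91 and lost its call with no filter (adjusted p = 0.0738, limma), and it was 0.72 to 1.11 with a library left out. On the HCD, TMM scaling gave 1.53 for 4.5S and 1.35 for RNY1, and miRNA scaling 3.63 and 3.39, all called. With miRNA scaling 135 RNAs were higher and 57 lower on the LCD, and 120 and 80 on the HCD, where a filter at 10 RPM left 115 lower. The replicate block changed no call of the 4 RNAs: with it the log2 fold change of 5S was 2.44 on the HCD (adjusted p = 1.17e-07, limma) and 1.93 on the LCD (adjusted p = 1.7e-07, limma), and RNY1 stayed called on the LCD (adjusted p = 0.0185, limma). The paired sign-flip tests of the ratios cannot go below 0.125 for 4 pairs or 0.0625 for 5.

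HCD against LCD, PANDORA-seq. 5S was 1.2 with RPM as deposited, 1.11 with listed reads, 1.04 with a filter at 10 RPM and 1.37 with all 18 libraries in a single fit, all called, and -0.50 with miRNA scaling. It was 0.85 to 1.19 with a library left out, and called only without LCD mouse 4. 4.5S was called at -1.02 with a filter at 10 RPM and at -2.53 with miRNA scaling, and RNY1 at -2.26 with miRNA scaling. RNY3 lost its call with RPM as deposited (-1.27), listed reads (-1.36), a pseudocount of 10 (-1.19), no filter (-1.44), all 18 libraries (-1.13) and the read total as a covariate (-1.41), and was -1.79 to -1.14 with a library left out. RNAs called higher numbered 29 with RPM as deposited, 39 with all 18 libraries, 12 with a pseudocount of 10, 10 with the covariate, 0 with no filter and 0 with miRNA scaling. RNAs called lower numbered 23 with all 18 libraries, 13 with no filter and 113 with miRNA scaling. Leaving out a library gave 2 to 25 higher and 21 to 36 lower. At an unadjusted p of 0.05 in limma, 54 RNAs were higher with no filter and 0 with miRNA scaling.

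HCD against LCD, traditional-seq. 5S was called at 1.34 with a filter at 10 RPM, and was 0.84 to 1.50 with a library left out. In 6 of 9 such fits it stayed uncalled, and in the rest it was called (lowest adjusted p = 0.0409, limma). 4.5S turned to -0.17 with RPM as deposited, -0.16 with listed reads and -0.21 with miRNA scaling, and RNY1 to -0.22, -0.20 and -0.26, none called. RNY1 was -0.13 to 0.51 with a library left out. RNY3 was called at -1.84, -1.82 and -1.86 with these scalings, at -1.27 with a filter at 10 RPM and at -1.51 with the covariate, and was -1.53 to -1.09 with a library left out, called without LCD mouse 2 or HCD mouse 16 or 18. Higher and lower RNAs numbered 3 and 57 with RPM as deposited, 3 and 53 with listed reads, 3 and 49 with miRNA scaling and 4 and 6 with no filter, and 7 were higher with all 18 libraries. Leaving out a library gave 7 to 18 higher and 13 to 40 lower.

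Interaction. With miRNA scaling 5S turned to -1.15 and RNY3 to -1.49, neither called. With a mouse left out, 5S was -0.11 to 0.53 and RNY3 -0.022 to 0.50. RNAs called higher numbered 10 in the fit reported, 43 with RPM as deposited, 25 with the replicate block, 2 with no filter and 0 with miRNA scaling, and with a mouse left out 0 to 14, with 0 to 11 lower. The lowest counts were those without mouse 2, 4, 5 or 16 (higher) and without mouse 5 (lower), where 8 to 18 RNAs were higher and 16 lower at an unadjusted p of 0.05 in limma, and with miRNA scaling 3 were.

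Depth limits the Y RNAs most, with 48 to 810 reads per library. Each diet was carried by different mice, so diet and any other difference between those mice cannot be told apart.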
